A study of Mus musculus with 12 samples.

Results

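Cytosolic ribosomal proteins are the protein subunits of the ribosomes that translate nuclear messages in the cytoplasm. They were taken here as the genes whose symbol is Rpl or Rps followed by a number, with Rpsa and the stalk genes Rplp0, Rplp1 and Rplp2 and without symbols marked as pseudogenes. This gave 80 of 35791 genes, 46 of the large subunit and 34 of the small subunit, and another 294 symbols with a pseudogene mark were left out. Each ribosome holds a single copy of most of these proteins, so cells keep their synthesis in step. The messages are short and abundant, and they carry a run of pyrimidines at the 5′ end, the terminal oligopyrimidine (TOP) motif, through which the growth-controlling kinase complex mTORC1 sets their translation. In the small bowel, ribosome production is known to be high in the dividing crypt cells that renew the epithelium.

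RNA was counted in 12 small bowel libraries of male C57BL/6 mice, 3 in each of 4 groups. The groups were Post 2'-FL (after ileocecal resection, which removes the end of the ileum and the cecum, with the milk sugar 2'-fucosyllactose at 2.5 g/L), Post control (after resection, no supplement), Pre 2'-FL (labelled as before resection, in the supplement arm) and Pre control (before resection, no supplement). The shared protocol gives mice of 8 to 10 weeks, supplement from day 0, the day of surgery, a liquid diet 7 days after it and collection 8 weeks after it. These entries stand on all 12 libraries, so that they conflict with the label Pre on 6 of them, and Pre 2'-FL may or may not have received the supplement. The label of each library was followed. Age, diet and the piece of bowel taken may differ between Post and Pre and cannot be told apart from resection. The labels do not say that libraries came from separate mice, so p-values measure spread between libraries, which may be partly technical.

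Totals ran from 5663275 to 9385266 counts per library. Of the ribosomal protein genes, 78 passed the filter on low counts among 13154 tested genes, 46 of the large and 32 of the small subunit. Rps3a2 and Rps3a3, both annotated copies of Rps3a1, had 0 counts in all 12 libraries. Levels are in CPM, the gene's count scaled to a common library total. The enterocyte markers summed to 64220 to 67440 CPM in Post 2'-FL, 53790 to 66040 in Post control, 25200 to 48950 in Pre 2'-FL and 36290 to 55130 in Pre control, so that they were abundant in every library. Of 5 pancreas markers 3 were at 0. The pancreas markers summed to 17.7 to 23.0 CPM in Post 2'-FL and 7.3 to 17.0 in Post control. Their sums were 4.84 to 5.92 CPM in Pre 2'-FL and 4.87 to 5.46 in Pre control. In bulk tissue, fewer cells of a type and less RNA per cell cannot be told apart.

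Starts of ribosomal protein genes with large and with small changes after resection in the 2'-FL arm are shown because the TOP motif, where present, begins at this place. RefSeq's table for GRCm38.p6 held 57 of the 78 tested genes. The windows run from 15 bases before the annotated start to 15 bases from it, and capitals mark the longest run of C and T that lies within 5 bases of the start, as far as it falls in the window.
Rpl41 (chr10:128549154-128549183, minus strand): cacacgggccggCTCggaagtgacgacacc
Rpl13a (chr7:45128731-45128760, minus strand): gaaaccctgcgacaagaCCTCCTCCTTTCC
Rpl35a (chr16:33056467-33056496, plus strand): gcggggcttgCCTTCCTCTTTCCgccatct
Rpl34 (chr3:130730323-130730352, minus strand): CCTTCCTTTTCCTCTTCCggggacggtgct
Rps25 (chr9:44407699-44407728, plus strand): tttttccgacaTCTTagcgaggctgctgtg
Rpl35 (chr2:39005117-39005146, minus strand): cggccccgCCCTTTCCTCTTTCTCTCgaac
Rps24 (chr14:24490663-24490692, plus strand): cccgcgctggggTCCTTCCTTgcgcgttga
Rpl23 (chr11:97782425-97782454, minus strand): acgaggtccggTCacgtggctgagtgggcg
Rpl4 (chr9:64173372-64173401, plus strand): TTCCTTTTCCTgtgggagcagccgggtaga
The first 7 of these had large changes and the last 2 small ones, while Rpl17, whose change of 2.22 was also among the largest, is not shown. A run of at least 6 C or T, read on the coding strand only, touched this zone in 29 of the 57 genes, or 50.9%, against 23.0% of the 26968 other genes of the table. The gene's best start was taken where several are listed, and there were 1.18 starts per ribosomal protein gene and 1.22 per other gene. TATAAA, searched on the coding strand between 40 and 20 bases upstream, stood in 0 of the 57 and in 2.25% of the other genes. Runs of C and T were found at both ends of the list: 20 bases in Rpl34 and 18 in Rpl35, both high, but also 14 in Rpl4, which changed little, and 3 in Rpl41, which changed most. The median log2 change in the 2'-FL arm was 1.52 over the 29 genes with a run and 1.58 over the 28 without. A match of letters is a description of these windows, and annotated starts may lie some bases away from those used in the bowel.

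Ribosomal protein genes took a larger part of the library in Post 2'-FL than in the other groups. Their share of all counts was 8.65%, 5.71% and 7.08% in the Post 2'-FL libraries, against 3.20%, 3.22% and 2.42% in Post control. It was 2.76%, 3.56% and 3.37% in Pre 2'-FL and 2.74%, 3.08% and 3.22% in Pre control. All Post 2'-FL libraries thus lay above the other 9, which overlapped among themselves. The mean was 7.14 ± 1.47% in Post 2'-FL and 3.23 ± 0.42% in Pre 2'-FL (SD, n = 3 each), a ratio of 2.21. Against Post control, at 2.95 ± 0.46%, the ratio was 2.42. Each of these differences had p = 0.1 in a two-sided exact permutation test, the smallest p that 3 against 3 libraries can give. Post control and Pre control, at 3.01 ± 0.24%, differed by less than their spread (exact permutation p = 0.9), and so did Pre 2'-FL and Pre control (exact permutation p = 0.4).

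**Figure D1:**
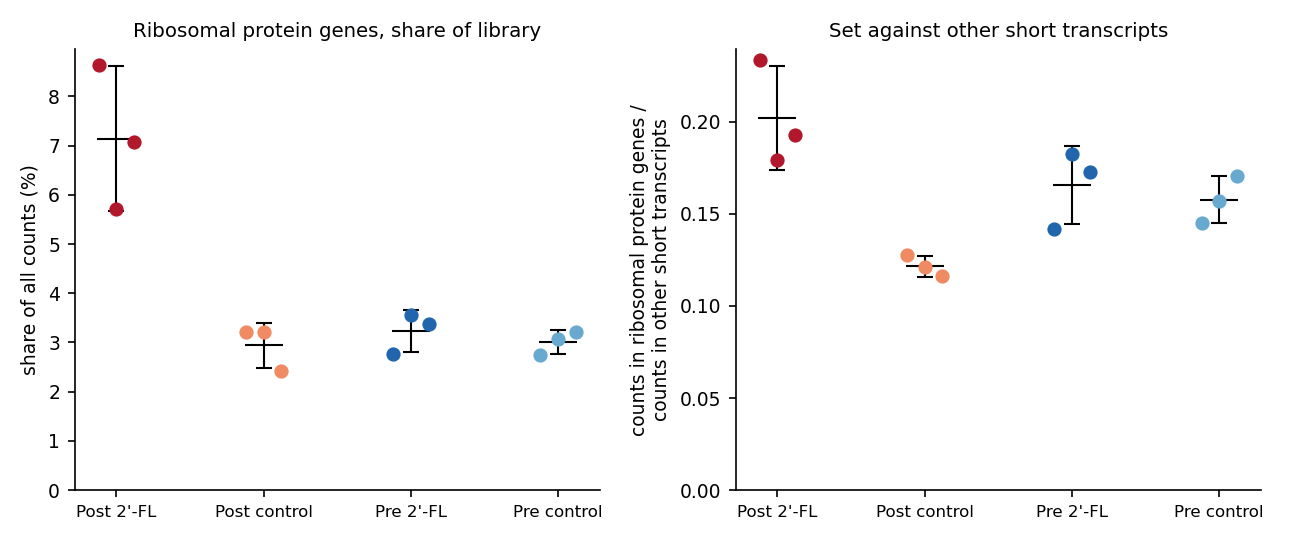
Ribosomal protein genes as percent of all counts (left) and as a ratio to the counts of other short transcripts (right), by group. Points are the 3 libraries of a group, the horizontal line is the mean and the bar the SD. The Post 2'-FL libraries lie at 5.71% to 8.65% on the left, above all others, while on the right the lowest of them, at 0.179, lies below the highest Pre 2'-FL library, at 0.183.

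Other short transcripts were also more abundant in Post 2'-FL, and the ribosomal protein messages are short. Their annotated transcripts had a median length of 835 nt (345 to 5179), against 3037 nt for the tested genes. Over the genes outside the family, the rank correlation across genes of length with each gene's deviation from its own mean level was -0.43, -0.56 and -0.60 in the Post 2'-FL libraries. It was -0.04, -0.21 and 0.35 in Post control, 0.49, 0.39 and 0.36 in Pre 2'-FL and 0.42, 0.45 and 0.26 in Pre control. Short transcripts were therefore relatively high in all Post 2'-FL libraries and relatively low in the Pre libraries, a trend that moves with the groups. The labels name no batch, and within-batch values cannot be computed.

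To set the family against this, 2332 tested genes outside it were taken whose length lay between the 10th and 90th percentile of its own lengths (490 to 1710 nt). These other short transcripts held 37.0%, 31.8% and 36.7% of the counts in Post 2'-FL, against 25.1%, 26.6% and 20.8% in Post control. In the 6 Pre libraries they held 18.8% to 19.6%. Counts in ribosomal protein genes per count in other short transcripts were 0.234, 0.179 and 0.193 in Post 2'-FL, against 0.128, 0.121 and 0.116 in Post control, so that these groups did not overlap. The ratio was 0.142, 0.183 and 0.173 in Pre 2'-FL, where one library lay above the lowest of Post 2'-FL, and 0.145, 0.157 and 0.171 in Pre control. Set against other short transcripts, Post 2'-FL was thus 1.66 times Post control (exact permutation p = 0.1, the smallest possible) and 1.22 times Pre 2'-FL (exact permutation p = 0.2). Post control was 0.771 times Pre control, without overlap (exact permutation p = 0.1).

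Every gene was tested in 2 ways with edgeR's quasi-likelihood test. The first takes the counts as they are (as tested). The second adds, for each library, a smooth curve of level on transcript length and GC content as an offset (length and GC corrected), and could be fitted for 77 of the 78 genes, since Rps4y2 had no annotated length. Genes with an adjusted p under 0.05, over all tested genes, count as called. The correction moved the median log2 change of all genes between Post 2'-FL and Pre 2'-FL to 0.01, from -0.13 as tested. Changes are in log2 units with their standard error (SE).

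After resection in the 2'-FL arm, almost the whole family rose as tested, and a smaller part of it rose once length and GC were corrected. As tested, 75 of 78 genes were higher and 0 lower in Post 2'-FL than in Pre 2'-FL, with a median change of 1.49, where 25.3% of all tested genes were called higher and 30% lower. Of the other short transcripts 60.5% were higher, with a median of 0.91. The abundant ones among them were the 898 with a mean level at least that of Rps4y2, the family's least abundant gene. Of these 80% were higher, with a median of 1.18. This is a floor only, so the 898 were not matched to the family in level. With correction, 42 of 77 ribosomal protein genes were higher and 5 lower, with a median of 0.52, where 20.9% of all genes were higher and 14.7% lower. The corrected share of other short transcripts called higher was 25%, with a median of 0.13, and 41% with a median of 0.37 among the abundant ones. All 42 were also higher as tested. The libraries of the 2 groups did not overlap in 76 of 78 genes, all higher in Post 2'-FL, where 27.9% of tested genes were higher and 33.7% lower without overlap. Without the library Post 2'-FL 1, the highest of its group, 27 rose in the corrected test. Calls over all genes were not counted in that refit. Cell type markers moved in the same comparison, with calls in both directions. Lower as tested were 6 of 6 endothelial, 5 of 8 crypt stem cell and 6 of 10 cell cycle genes, and 3, 1 and 3 with correction. In both tests 2 cell cycle genes were higher. Goblet cell genes had 3 higher and 3 lower of 6 as tested, and B and plasma cell genes 2 higher and 0 lower of 6. With correction 0 were higher in either of these lists. The other lists are given further below.

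**Figure D2:**
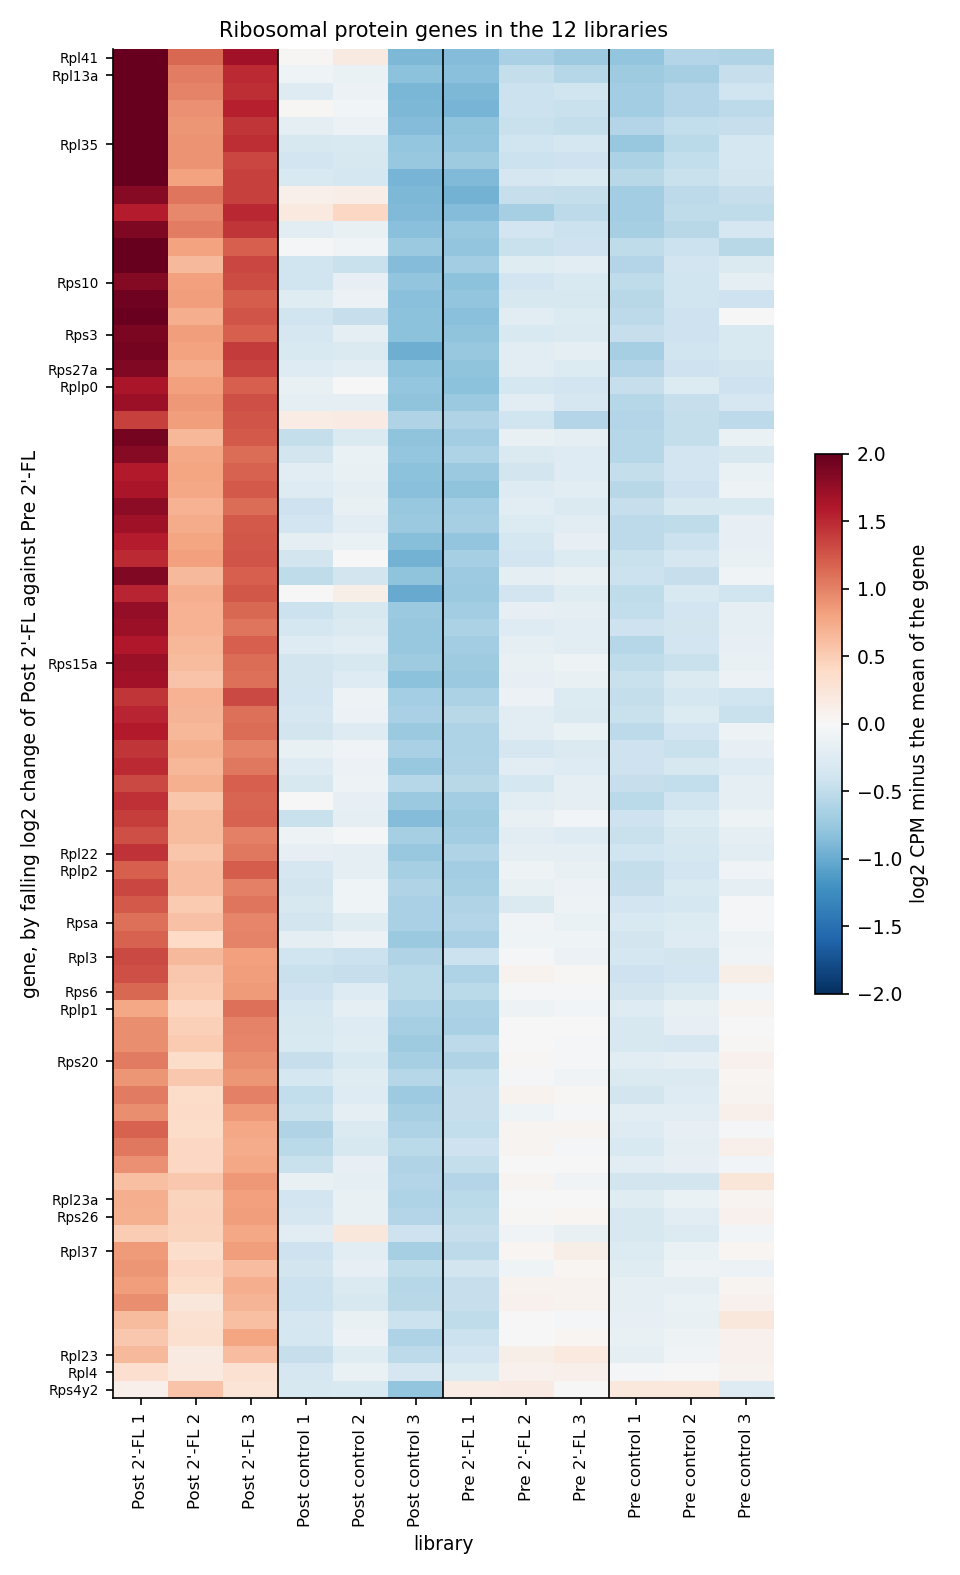
Level of the 78 tested ribosomal protein genes in each of the 12 libraries, as log2 CPM minus the gene's mean over all libraries, with genes ordered by their change between Post 2'-FL and Pre 2'-FL. Red is above and blue below the mean. Only some of the genes named in the text are labelled. The 3 Post 2'-FL columns are red from Rpl41 down to the last few rows, where Rpl4 and Rps4y2 change little, and the Post 2'-FL 2 column is the palest of them for most genes.

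Rpl41, the smallest ribosomal protein, had the largest change and was also the most abundant of the family per length. It was at 3657, 1918 and 2761 CPM in Post 2'-FL, against 472, 549 and 523 CPM in Pre 2'-FL. It reached 881, 975 and 465 CPM in Post control and 500, 574 and 571 CPM in Pre control. Only the Post 2'-FL libraries stand clear of the rest, and 2 Post control libraries lay above both Pre groups. The log2 change in the 2'-FL arm was 2.43 ± 0.30 (SE, edgeR adjusted p = 4.74e-05), and 1.39 ± 0.21 with correction (edgeR adjusted p = 0.000363).

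Rpl13a, a large subunit protein that in human cells also joins a complex that silences inflammatory messages, came next. It was at 3510, 1515 and 2094 CPM in Post 2'-FL, against 419, 534 and 504 CPM in Pre 2'-FL. The change was 2.29 ± 0.31 as tested (edgeR adjusted p = 6.52e-05) and 1.50 ± 0.25 with correction (edgeR adjusted p = 0.000701). The other 6 largest changes as tested were those of the large subunit genes Rpl17 at 2.22, Rpl35a at 2.18, Rpl34 at 2.15 and Rpl35 at 2.12, and of the small subunit genes Rps25 at 2.12 and Rps24 at 2.09. Each of the 6 rose in both tests, and their corrected changes ran from 0.74 in Rpl35a to 1.44 in Rpl35. Rps24 and Rpl35a are among the genes mutated in human Diamond-Blackfan anaemia, an inherited failure of red cell production. Libraries of Post 2'-FL differed widely for these genes: Rps24 was at 3478, 1267 and 1860 CPM there, all above 394, 575 and 588 CPM in Pre 2'-FL.

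At the other end, 3 genes were not called as tested. Rpl4, which lines the tunnel through which the new protein leaves, was at 954, 868 and 942 CPM in Post 2'-FL and at 627, 805 and 813 CPM in Pre 2'-FL, a change of 0.30 ± 0.19 (edgeR adjusted p = 0.185). Rpl23, one of the ribosomal proteins that can bind the p53 regulator Mdm2, was at 659, 473 and 645 CPM in Post 2'-FL and at 321, 456 and 478 CPM in Pre 2'-FL, a change of 0.50 ± 0.21 (edgeR adjusted p = 0.0547). Rps4y2, which RefSeq lists as Rps4l, was the least abundant gene of the family, at 41.7 ± 7.0 CPM in Post 2'-FL and 35.8 ± 2.0 CPM in Pre 2'-FL (SD, n = 3 each; edgeR adjusted p = 0.362). It resembles Rps4x, and reads may have been divided between such copies.

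With length and GC corrected, 60 of 77 changes were above 0, where all 78 had been as tested. Rpl23 was then lower in Post 2'-FL by -0.74 ± 0.17 (edgeR adjusted p = 0.00465) and Rpl4 by -0.45 ± 0.17 (edgeR adjusted p = 0.0492). The other 3 called lower with correction were Rps26 at -0.50, Rpl23a at -0.49 and Rpl37 at -0.46, each of which had been higher as tested, at 0.81, 0.83 and 0.79. A direction for these 5 genes therefore depends on the treatment of length. When the shortest in place of the longest curated transcript gave the length, 1 gene, Rpl23, was lower. The count of 5 also became 1 when Post 2'-FL 1, Post control 1, Pre 2'-FL 2, Pre 2'-FL 3 or Pre control 2 was left out. It was 2 without Post 2'-FL 2 and likewise without Post control 3, and 3 without Post control 2.

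The largest corrected change, 2.09 ± 0.28, was that of the small subunit gene Rps15a (edgeR adjusted p = 0.000189), whose change as tested was 1.52 ± 0.27. Rps15a was at 1070, 503 and 702 CPM in Post 2'-FL, against 198, 293 and 302 CPM in Pre 2'-FL. Its curated transcript in the annotation has 5179 nt and is the longest of the family. Rps20, with 3706 nt, is the next longest, and its change was 0.98 as tested and 0.82 with correction. Whether the bowel's own transcripts of these genes are that long was not tested. The next largest corrected changes were those of Rpl13a at 1.50, Rpl35 at 1.44, Rpl41 at 1.39 and Rps10, another small subunit gene, at 1.37.

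**Figure D3:**
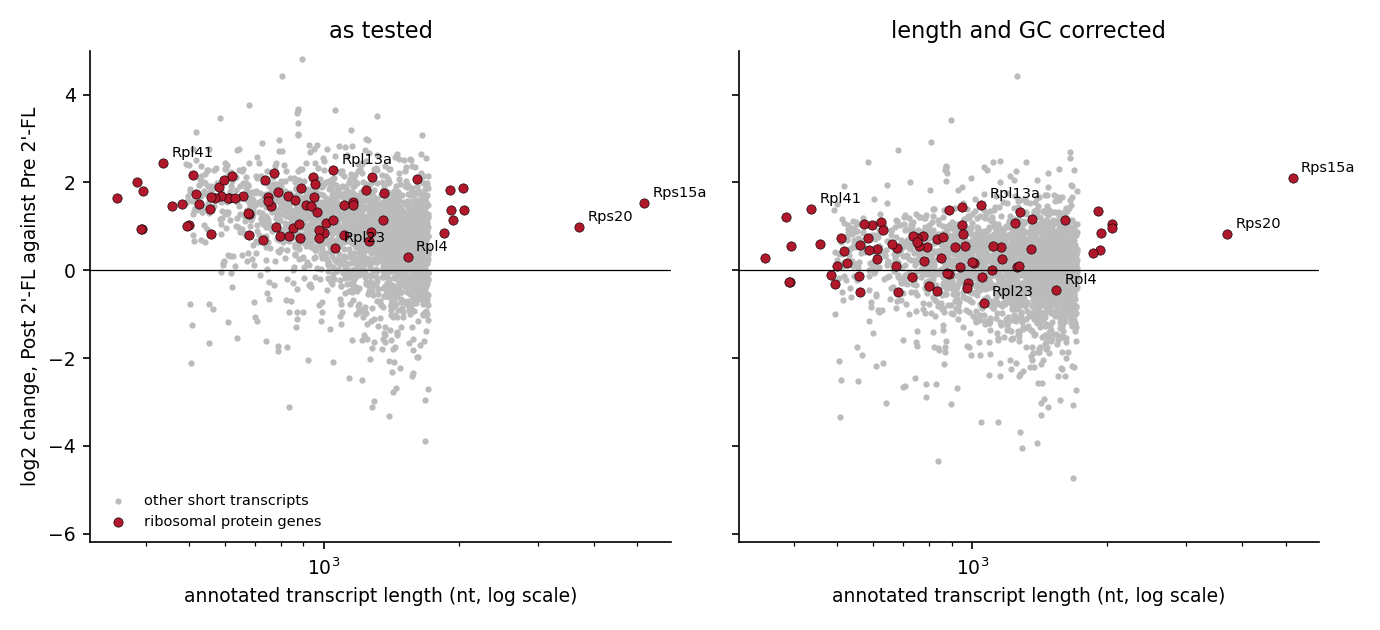
Log2 change between Post 2'-FL and Pre 2'-FL against annotated transcript length (log scale), as tested (left) and with length and GC corrected (right). Red points are the 77 ribosomal protein genes with a length and grey points the 2332 other short transcripts. On the left all red points lie above 0 and mostly in the upper part of the grey cloud; on the right they spread from -0.74 (Rpl23) to 2.09 (Rps15a).

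Within the family, length and change were only loosely related. Over 77 genes, which share the same libraries, the rank correlation of the change as tested was -0.17 with length, 0.11 with GC content and 0.43 with the level per kilobase. That level is a mean over all 12 libraries, those of Post 2'-FL included, so it is not independent of the change. For the corrected change the correlations were 0.18, 0.27 and 0.19. The values that follow are as tested. Up to 678 nt, the 26 ribosomal protein genes had a median change of 1.65 and the 212 other genes of that length one of 1.54. From 678 to 976 nt the medians were 1.46 over 25 ribosomal protein genes and 1.27 over 416 others. Above that, up to 5179 nt, they were 1.26 over 26 ribosomal protein genes and -0.04 over 9613 others, most of which are far longer than the family. Of the 78 genes as tested, 63 lay above the median of the other short transcripts and 17 above their 90th percentile.

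Both subunits and the stalk rose as tested. In counts, 44 of 46 large subunit genes rose in the 2'-FL arm, with a median of 1.43, and 31 of 32 small subunit genes, with a median of 1.59. With correction, 22 of 46 and 20 of 31 rose, with medians of 0.45 and 0.59. The stalk, which recruits the elongation factors, was represented by Rplp0 at 1.75 ± 0.28, Rplp1 at 1.04 ± 0.23 and Rplp2 at 1.32 ± 0.23, all called as tested. With correction, Rplp0 (1.16 ± 0.24, edgeR adjusted p = 0.00248) and Rplp2 (0.55 ± 0.18, edgeR adjusted p = 0.0305) were still called and Rplp1 was not, at 0.11 ± 0.17. Rplp0, widely used as a reference gene in quantitative PCR, was at 4427, 2511 and 3264 CPM in Post 2'-FL, against 1284, 1417 and 837 CPM in Post control. It was at 806, 1125 and 1096 CPM in Pre 2'-FL and at 1039, 1182 and 1078 CPM in Pre control, so that only Post 2'-FL stood apart.

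The genes that follow all rose as tested, while their corrected changes differed. Rps6, the small subunit protein that S6 kinase phosphorylates downstream of mTORC1, was at 1235, 795 and 1003 CPM in Post 2'-FL, against 382, 542 and 544 CPM in Pre 2'-FL. Its change was 1.05 ± 0.22 as tested (edgeR adjusted p = 0.00133) but -0.07 ± 0.16 with correction (edgeR adjusted p = 0.758). Rps3, a protein of the messenger entry channel, kept most of its change, at 1.83 ± 0.28 as tested and 1.34 ± 0.24 with correction (edgeR adjusted p = 0.000962). Rpsa, also known as the laminin receptor, rose by 1.15 ± 0.23, and by 0.85 ± 0.20 with correction. Rps27a, made as a fusion with ubiquitin, rose by 1.79 ± 0.28, and by 0.54 ± 0.18 with correction. Rpl22, an RNA-binding subunit without which mice are viable, rose by 1.37 ± 0.24, and by 1.05 ± 0.21 with correction. Rpl3, which reaches toward the peptidyl transferase centre, rose by 1.14 ± 0.22 as tested, while its corrected change of 0.48 ± 0.18 did not pass (edgeR adjusted p = 0.0558).

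Between the arms after resection, the whole tested family was higher with 2'-FL. As tested, 78 of 78 genes were higher in Post 2'-FL than in Post control, with a median change of 1.45, where 18.8% of all tested genes were higher and 19.3% lower. Of the other short transcripts 47.7% were higher, with a median of 0.70, and of the abundant ones 57.3%, with a median of 0.69. With correction, 44 of 77 were higher and 0 lower, with a median of 0.61, where 10.1% of all genes were higher and 11.3% lower. The corrected share of other short transcripts called higher was 11.1%, with a median of 0.06, and 13.9% with a median of 0.02 among the abundant ones. Without Post 2'-FL 1 the corrected count was 23, and without Post control 3, the library of its group with the lowest family share, 24. Calls over all genes were not counted in these refits. This comparison and the one within the 2'-FL arm share the Post 2'-FL libraries and are not independent of each other.

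The single libraries did not overlap between Post 2'-FL and Post control for any of the 78 genes, where 25.2% of all tested genes were higher without overlap. The largest changes as tested were those of Rps24 at 2.10 ± 0.33, Rps25 at 2.08 ± 0.29, Rpl35 at 2.08 ± 0.29 and Rps12 at 2.08 ± 0.32. Rps25, a small subunit protein needed for some kinds of internal initiation, was at 1866, 734 and 995 CPM in Post 2'-FL, against 303, 316 and 232 CPM in Post control. The smallest were those of Rpl29 at 0.82, Rps4y2 at 0.80, Rpl28 at 0.69 and Rpl4 at 0.54 ± 0.19 (edgeR adjusted p = 0.0344). With correction the largest were Rps15a at 1.93, Rpl35 at 1.53, Rps25 at 1.44, Rps3 at 1.38 and Rps10 at 1.38, all called. The lowest corrected values, from -0.20 in Rpl23a to -0.07 in Rpl4 with Rps26, Rpl23 and Rps29 between them, did not pass. Among large subunit genes 24 of 46 and among small subunit genes 20 of 31 rose with correction.

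**Figure D4:**
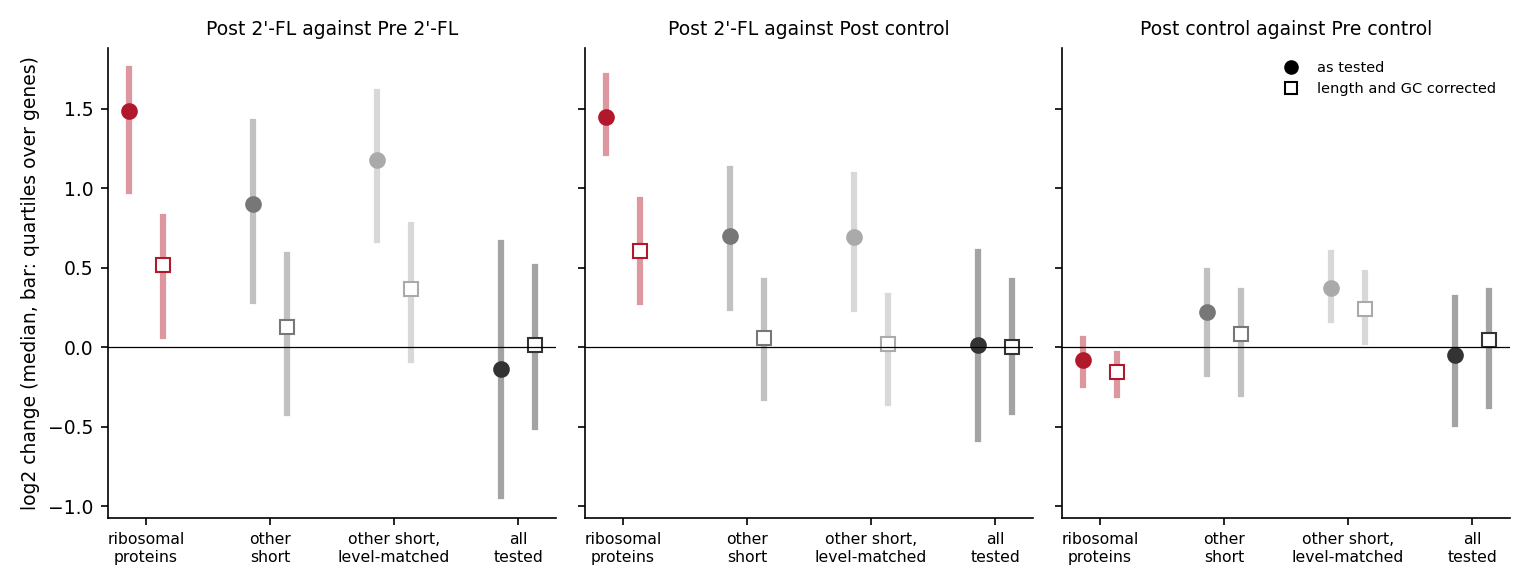
Median log2 change (points) and quartiles over genes (bars) of the ribosomal protein genes, other short transcripts, the abundant ones of these and all tested genes, in 3 comparisons. The abundant ones, labelled level-matched, are those at least as abundant as Rps4y2 and are not matched to the family in level. Filled circles are as tested and open squares with length and GC corrected. In the first 2 panels the ribosomal protein median is the highest on both scales (1.49 and 0.52, then 1.45 and 0.61), while in the control arm it lies at -0.08 and -0.16, below the other sets.

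Without the supplement, no gene of the family was called after resection as tested, and Rpl23 alone was called with correction. In Post control against Pre control, 0 of 78 genes were called in either direction by edgeR as tested, where 4.42% of all genes were higher and 6.33% lower. As tested, 1 of the 78 reached an unadjusted p under 0.05, where 3889 of all 13154 genes did. DESeq2 called 0, 26 of 78 changes were above 0 and the median change was -0.08. With correction, 10 of 77 had an unadjusted p under 0.05, where 4023 of all 12655 genes did. Of the 77 corrected changes 15 were above 0, and their median was -0.16. Other short transcripts had a median of 0.22 and 7.72% of them were higher, and the abundant ones had a median of 0.37 with 14% higher. Only 7 of the 78 genes lay above the median of the other short transcripts. In 10 of the 78 genes all Post control libraries lay below all Pre control libraries and in 0 above, where 17.6% of tested genes were lower and 17.3% higher without overlap. With correction, 0 of 77 were higher and Rpl23 alone was lower, at -0.58 ± 0.17 (edgeR adjusted p = 0.0403), a call that was lost without any 1 of the 6 libraries of this arm, where 7.6% of genes were higher and 5.24% lower.

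The highest values in the control arm, none of which passed, were those of Rps14 at 0.58, Rpl41 at 0.50, Rpl11 at 0.47 and Rpl9 at 0.41. Rps14, whose loss underlies the anaemia of the human 5q deletion, was at 864, 1013 and 410 CPM in Post control and at 466, 532 and 533 CPM in Pre control. One Post control library thus lay below all Pre control libraries and the others above. Rpl11, another Mdm2-binding protein, was at 476, 481 and 283 CPM in Post control and at 287, 308 and 299 CPM in Pre control, with the same library low. The lowest values were those of Rps4y2 at -0.54, Rps20 at -0.37, Rpl30 at -0.36 and Rpl23 at -0.35. Without Post control 3, Post control had 2 genes called higher as tested, in a refit where calls over all genes were not counted.

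Before resection the arms could not be told apart in this family. Between Pre 2'-FL and Pre control 0 of 78 genes were called by edgeR, as by DESeq2, where 0% of all genes were called higher and 0.0152% lower. An unadjusted p under 0.05 was reached by 0 of the 78, and by 445 of all 13154 genes. The median was -0.01, and single changes ran from -0.14 in Rpl29 to 0.09 in Rpl36a, with Rpl3, Rps21 and Rps28 next to the upper end and Rpl12, Rplp1 and Rps15 next to the lower. Their median SE was 0.24. With correction 0 of 77 were called, where 0% of genes were higher and 0.0158% lower, and 0 genes were free of overlap, where 4.31% of tested genes were higher and 4.91% lower in that way.

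The difference between the arms in the change after resection was tested as an interaction, Post minus Pre with 2'-FL less the same difference in controls. As tested, 73 of 78 genes were higher and 0 lower, with a median of 1.46, where 7.47% of all genes were higher and 8.03% lower. Other short transcripts were higher in 24.8%, with a median of 0.73. The largest values were those of Rps24 at 2.13, Rps25 at 2.10, Rpl12 at 2.10 and Rpl17 at 2.05. Rpl23, Rps4y2, Rpl28 and Rpl4 had the smallest, from 0.86 to 0.58, and were not called. With correction, edgeR called 0 of 77, as it called 0% of all genes, and the median was 0.57. An unadjusted p under 0.05 was found in 41 of the 77, and in 2514 of all 12655 genes. The largest corrected values, none of which passed, were those of Rps15a at 1.94, Rps3 at 1.47, and Rpl12, Rps25 and Rps10 at 1.46 each. Without Post control 3, 36 were called as tested, and without Post 2'-FL 2, 21 were called with correction. Calls over all genes were not counted in these refits, so no share of all genes stands beside them.

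Taken over both arms, Post against Pre gave 57 of 78 genes higher and 0 lower as tested, with a median of 0.73, where 25.3% of all genes were higher and 31.1% lower. Of the other short transcripts 56.2% were higher, with a median of 0.56, and of the abundant ones 79.5%, with a median of 0.78. With correction 21 of 77 ribosomal protein genes, or 27.3%, were higher and 8 lower, with a median of 0.20. Of all genes 24.7% were then higher and 18.8% lower. The corrected share of other short transcripts called higher was 28.1%, with a median of 0.12, and 47.6% with a median of 0.31 among the abundant ones. The largest changes in the family as tested were those of Rpl41, Rps14, Rpl13a and Rpl35a, and in the corrected test Rps15a, Rpl41, Rpl13a, Rpl36 and Rps14. Rpl23, Rpl37, Rps4x, Rpl4 and Rps3a1 were lowest with correction. Of the 78 genes 0 were free of overlap in either direction, where 8.02% of tested genes were higher and 8.94% lower without overlap.

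Per length, the family spanned a wide range of levels. Averaged over the 12 libraries, the highest levels per kilobase were those of Rpl41 at 2641 CPM per kb, Rps27 at 1616, Rps14 at 1553 and Rps12 at 1354. The lowest were those of Rpl21 at 244, Rps20 at 122, Rpl22 at 103 and Rps15a at 73.0 CPM per kb, among which Rps20 and Rps15a carry the long annotated transcripts named above. Most ribosomal protein genes have many processed copies in the genome, and how reads that match several places were counted is not given in the sources used here. In a library, between 33.75% and 66.25% of the family's genes had a count off a whole number. The entries marked as pseudogenes summed to 0.103% to 0.126% of the family's counts in every library, so that little had been assigned to them.

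Related gene lists were counted in Post 2'-FL against Post control, where 18.8% of all tested genes were higher and 19.3% lower as tested, and 10.1% higher and 11.3% lower with correction. Of the ribosomal protein genes outside the naming rule, such as Fau, which is made as a fusion with a ubiquitin-like protein, 6 of 6 tested rose as tested and 2 of 6 with correction. Rps27l changed by 1.70 and Rpl36al by 1.33 as tested, but by 0.04 and 0.08 with correction. Of the proteins of the mitochondrial ribosome, a separate machine with short messages of its own, 68 of 75 rose and 0 fell as tested, with a median of 1.04, and 30 rose and 1 fell with correction, with a median of 0.40. Mrpl54 and Mrps28 were among those with the smallest p, at 1.63 ± 0.22 and 1.86 ± 0.23. Higher values as tested were thus found for both kinds of ribosome.

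Among elongation factors and other TOP messages, 12 of 17 rose and 2 fell in Post 2'-FL against Post control as tested, and 5 rose and 1 fell with correction. Eef1b2, an exchange factor of elongation, changed by 1.65 ± 0.28 as tested and by 1.10 with correction (edgeR adjusted p = 0.00627), and Gnb2l1, the ribosomal scaffold RACK1, by 1.26 and 0.74, both called. Naca, a ribosome-bound chaperone subunit, changed by 1.32 as tested and by 2.10 with correction, on an annotated transcript of 6745 nt. Of the initiation factors, 12 of 29 rose and 3 fell as tested, and 7 rose and 3 fell with correction, where all tested genes had 18.8% and 19.3% as tested, and 10.1% and 11.3% with correction. Eif3i and Eif1ax rose in both tests, at 1.44 and 1.39 as tested, and Eif4g1, the scaffold of the cap-binding complex, fell in both, by -1.30 as tested and -0.51 with correction.

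Of the ribosome biogenesis genes, which make and assemble the subunits in the nucleolus, 11 of 39 rose and 2 fell in Post 2'-FL against Post control as tested, and 6 rose and 1 fell with correction (all tested genes: 18.8% and 19.3%, then 10.1% and 11.3%). Nhp2 and Nop10, partners in the particles that modify ribosomal RNA, were higher by 1.77 and 1.62 as tested and by 1.15 and 0.61 with correction. In Post 2'-FL against Pre 2'-FL, 4 of the 39 were higher and 13 lower as tested, where 25.3% of all genes were higher and 30% lower. With correction 4 were higher and 5 lower, where 20.9% of all genes were higher and 14.7% lower, so that the lower calls lay near the share of all genes in both tests. Tcof1, a nucleolar factor, fell there by -2.37 and Ncl, nucleolin, by -1.80, and both fell with correction too. In the control arm 1 rose and 3 fell as tested (1 and 2 with correction), and Tcof1 and Ncl were among those that fell. Of all genes 4.42% were higher and 6.33% lower in that arm as tested, and 7.6% and 5.24% with correction.

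Of the genes of mTORC1 and TOP control, 0 of 22 rose and 7 fell in Post 2'-FL against Post control as tested, and 1 rose and 3 fell with correction (all tested genes: 18.8% and 19.3%, then 10.1% and 11.3%). In Post 2'-FL against Pre 2'-FL, 3 of 22 rose and 9 fell as tested, while 8 rose and 2 fell with correction, with a median of 0.14 (all tested genes: 25.3% and 30%, then 20.9% and 14.7%). The balance of this list thus depends on the comparison and on the treatment of length. Larp1, the protein that binds TOP messages, was lower in Post 2'-FL than in Post control by -1.40 ± 0.25 as tested (edgeR adjusted p = 0.00112), but its corrected value of -0.53 did not pass (edgeR adjusted p = 0.0704). Within the 2'-FL arm Larp1 was lower in both tests, by -2.13 as tested and -0.81 with correction (edgeR adjusted p = 0.00695). In the control arm it was lower by -0.79 as tested (edgeR adjusted p = 0.0478), and its corrected value of -0.38 did not pass (edgeR adjusted p = 0.186). Between the Post groups Eif4ebp2, a repressor of cap-dependent translation, fell in both tests, by -1.65 and -1.93. Most genes of this list have long transcripts, with a median of 3642 nt. Of the genes of p53, Mdm2 and their targets, which ribosomal stress can act on, 3 of 11 rose and 2 fell in Post 2'-FL against Post control as tested, and 1 rose and 3 fell with correction, beside the same shares of all genes as above.

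**Figure D5:**
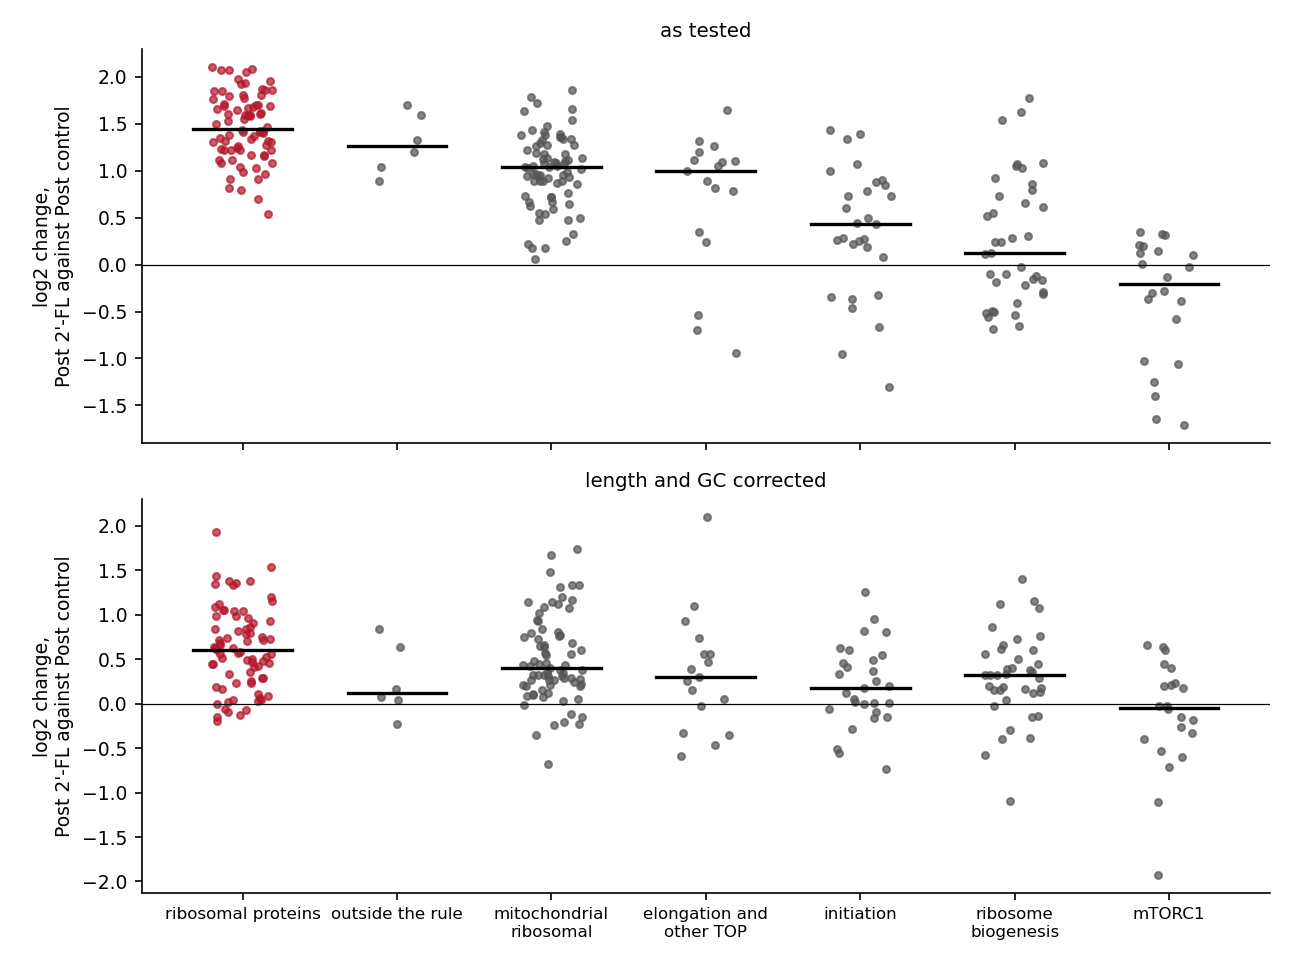
Log2 change between Post 2'-FL and Post control of the ribosomal protein genes (red) and of related gene lists (grey), as tested (top) and with length and GC corrected (bottom). Each point is a gene and the black line is the median of the list. The red points lie at 0.54 to 2.10 in the top panel and at -0.20 to 1.93 in the bottom panel, where their median is 0.61, and the mTORC1 list has medians of -0.21 and -0.04.

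Markers of cell types and of cycling cells moved in both directions. Between Post 2'-FL and Post control, 18.8% of all tested genes were higher and 19.3% lower as tested, and 10.1% and 11.3% with correction. Of 10 cell cycle genes, 4 rose and 0 fell in Post 2'-FL against Post control in both tests, and their summed level was 330 to 462 CPM in Post 2'-FL, against 206 to 287 in Post control. It was 350 to 534 CPM in Pre 2'-FL and 327 to 547 in Pre control. Paneth cell genes summed to 12110 to 29450 CPM in Post 2'-FL and 5864 to 7792 CPM in Post control, and 5 of 6 rose as tested but 1 with correction. Their sums were 11460 to 36810 CPM in Pre 2'-FL and 19510 to 34370 in Pre control, so that Post control was the low group. Smooth muscle genes summed to 1290 to 1539 CPM in Post 2'-FL and 502 to 779 CPM in Post control, with 3 of 6 higher in both tests. In Pre 2'-FL they summed to 714 to 1680 CPM and in Pre control to 857 to 1137. B and plasma cell genes summed to 1197 to 1992 CPM in Post 2'-FL and 338 to 1012 CPM in Post control, with 2 of 6 higher as tested and 1 with correction. Their sums were 338.9 to 854.7 CPM in Pre 2'-FL and 276.2 to 927.5 in Pre control. Crypt stem cell genes summed to 240 to 369 CPM in Post 2'-FL and 207 to 267 CPM in Post control, with 1 higher and 2 lower of 8 as tested and 1 higher and 0 lower with correction. In Pre 2'-FL they summed to 246 to 548 CPM and in Pre control to 301 to 414. Enterocyte genes lay lower, with 0 higher and 4 lower of 10 as tested and 0 and 3 with correction, at medians of -0.49 and -0.51, although their summed level given above was not lower in Post 2'-FL.

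In Post 2'-FL against Pre 2'-FL, calls in the marker lists were mostly lower, where 25.3% of all genes were higher and 30% lower as tested, and 20.9% and 14.7% with correction. Endothelial genes summed to 15.7 to 24.1 CPM in Post 2'-FL and 60.1 to 139 CPM in Pre 2'-FL, with 6 of 6 lower as tested and 3 with correction. Fat genes summed to 26.9 to 108 CPM in Post 2'-FL and 78.2 to 582 CPM in Pre 2'-FL, with 3 of 5 lower as tested and 5 with correction. Of the Paneth cell genes 1 of 6 was lower as tested and 6 with correction. Crypt stem cell genes were lower in 5 of 8 as tested and 1 with correction, and cell cycle genes in 6 of 10 and 3, with 2 higher in both tests. Enterocyte genes had 1 higher and 4 lower of 10 as tested, and 1 higher and 0 lower with correction. Goblet cell genes had 3 higher and 3 lower of 6 as tested, and 0 higher and 1 lower of 5 with correction. Myeloid genes were lower in 2 of 5 in both tests, and smooth muscle genes had 1 higher and 1 lower of 6 in both. The only pancreas gene that was tested was higher in both. Higher calls as tested that were lost with correction were those of 2 of 6 B and plasma cell genes and 1 of 5 T cell genes. The part of these cells, and of transcript length, in the family's result was not tested.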

How the data were processed

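The authors deposited 1 table per library with an estimated count per gene, not normalised; part of these expected counts is fractional. The submitters' processing notes name mm10 and DESeq; the aligner, counting program, annotation and strand are not given in the sources used here. The 36186 entries were summed by Entrez identifier to 35791 genes and rounded.

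Tests used R 4.3.3 and edgeR 4.0.16 (filterByExpr, TMM, quasi-likelihood F test, 1 model of all 12 libraries with 8 residual degrees of freedom, Benjamini-Hochberg adjustment over all tested genes, two-sided). Log2 changes come from this model on the deposited counts, CPM from TMM-scaled totals, and the SE is the change over the square root of F. The correction used natural splines (4 degrees of freedom) of centred log2 CPM (prior count 2) on log length and GC, fitted per library over 12655 genes with the longest curated transcript of GENCODE's mm10 annotation. The procedure was tried on simulated data, with or without a straight trend on log length in Post 2'-FL only, no GC trend and no changed family gene. These settings are simpler than the data and cannot show how exact the family's corrected changes are. DESeq2 1.42.0, other scalings, filters, a replicate block and leaving out libraries were alternatives.

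Members, lists and the length correction were chosen with earlier results of these data known. Named are 11 fixed genes, the largest and smallest changes per comparison (8 and 4 within the 2'-FL arm, otherwise 4 each), up to 5 corrected changes each way, the 4 highest and lowest levels per kilobase, and up to 4 genes of a list by smallest p; some genes under these rules are not reported here. Counts of 5663275 to 9385266 per library mean that 1 count is 0.107 to 0.177 CPM.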

Additional observations from a re-analysis of the deposited data

Results flagged for a closer look

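The change after resection differed between the arms by the interaction term of edgeR's model as tested in 73 of the 78 ribosomal protein genes. The largest differences were 2.13 in Rps24, 2.10 in Rps25, 2.10 in Rpl12 and 2.05 in Rpl17 (log2 units), each higher in the 2'-FL arm. With length and GC corrected none of the 77 genes passed, and these 4 had values of 1.41, 1.46, 1.46 and 0.81, with edgeR adjusted p of 0.0698, 0.0615, 0.0665 and 0.121.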

How the results depend on the processing

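Most alternatives left the counts of called ribosomal protein genes within 1.5 times those reported, among them DESeq2, other size factors, other filters and fits to the compared groups alone. The exceptions were the following. Length and GC correction gave 42 higher and 5 lower within the 2'-FL arm, 44 higher between the Post groups, 21 higher and 8 lower over both arms, 1 lower in the control arm and 0 in the interaction. It also turned signs: of 77 genes, 60 lay above 0 within the 2'-FL arm, 70 between the Post groups and 50 over both arms, where as tested 78, 78 and 77 of 78 did. Examples of reversal are Rps6 (-0.0704), Rpl23 (-0.74) and Rpl4 (-0.45) within the 2'-FL arm, Rpl23 (-0.66) and Rpl4 (-0.44) over both arms, and Rpl4 between the Post groups (-0.0731). Taking the shortest curated transcript, an alternative chosen after seeing the data, gave 1 lower within the 2'-FL arm, 4 lower over both arms, 0 lower in the control arm and 5 higher in the interaction. Leaving out each library in turn gave, as tested, 0 to 2 higher in the control arm (2 without Post control 3) and 36 to 74 in the interaction. With correction it gave 0 to 1 higher and 0 to 4 lower in the control arm, 27 to 44 higher and 1 to 6 lower within the 2'-FL arm, 23 (24 without Post control 3) to 47 higher between the Post groups and 0 to 21 in the interaction. Apart from the length and GC corrected fit, calls over all genes were not counted for these alternatives. The causes were not tested.

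Same-numbered libraries of different groups did not regularly deviate together: 3 of 12 pairs had a correlation above 0.1, over a range from -0.23 to 0.42. The highest was that of Pre 2'-FL 1 with Pre control 1. The numbers were not taken to pair samples. With the replicate number as a block, 75 were higher within the 2'-FL arm, 77 between the Post groups, 55 over both arms and 68 in the interaction as tested, and 38, 42, 18 and 0 with correction. Depth does not limit these genes, since all but Rps4y2 averaged over 100 CPM in each group, while 3 libraries per group and the shared trend of level on length do.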
